A study of Homo sapiens with 4 samples.

Results

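The stretch of 28S rRNA described here runs from nt 2101 to nt 2888, positions 10025 to 10812 of the 45S precursor RNA45SN5. Its bounds are positions in the sequence and use no measured value, although it was proposed with earlier results of these data known. It holds 788 of the 5070 positions of 28S and of 15984 listed positions in all. By textbook position it covers about ES15L, domain III and the start of domain IV of the large subunit rRNA. The files mark no helix or domain, so places are given below by nucleotide, counted from the 5' end of 28S. The whole stretch lies in the exonic, mature 28S part of a non-coding gene and in no spacer. HEK293T is a human embryonic kidney line with the SV40 large T antigen, and in every library the cells stably overexpressed Flag-SIRT7, at passages 10 to 15. RNA was recovered on anti-Flag gel from the cytosolic fraction (2 libraries) and from the nuclear fraction (2 libraries). The groups thus differ in the fraction and share the cell line, the construct and the pull-down. No mock pull-down and no input RNA were analysed here, so depth shows which 28S sequence was recovered and not how far SIRT7 enriched it. Total depth differed by at most 1.12-fold between libraries, and the labels do not say that replicates were separate cultures, so each p-value reflects only how far these libraries spread, and that spread may be technical.

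The 28S rRNA is the long RNA of the large ribosomal subunit, made in the nucleolus as part of the 45S precursor and folded into domains around a core shared with bacteria. Expansion segments such as ES15L are insertions that eukaryotes have in this core. In mammals several of them are long, rich in G and C, and reach out from the surface of the subunit. Domain III lies near the exit of the tunnel through which the new protein leaves the ribosome, where the ribosomal protein uL23 binds it. SIRT7 is a nucleolar sirtuin, an NAD-dependent deacylase, and the study's title describes it as activated by RNA.

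The sequences below are the reference letters of the deposited table, on the strand of the rRNA, written with T for U. They are shown because the 2 blocks of lower nuclear depth lie in the first and second, while the other two hold the windows of highest nuclear depth and of lowest G+C content, with a neighbouring window on each side. Capitals mark a single 25-nt window in each. In the first line it is the window with the largest ratio of cytosolic over nuclear depth, in the second the window with the largest such ratio in its block, in the third the window of highest nuclear depth and in the last line that of lowest G+C.
nt 2102 to 2276: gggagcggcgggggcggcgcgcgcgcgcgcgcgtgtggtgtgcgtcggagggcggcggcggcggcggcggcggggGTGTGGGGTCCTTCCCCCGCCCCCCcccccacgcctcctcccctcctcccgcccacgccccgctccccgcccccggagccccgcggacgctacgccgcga
nt 2452 to 2701: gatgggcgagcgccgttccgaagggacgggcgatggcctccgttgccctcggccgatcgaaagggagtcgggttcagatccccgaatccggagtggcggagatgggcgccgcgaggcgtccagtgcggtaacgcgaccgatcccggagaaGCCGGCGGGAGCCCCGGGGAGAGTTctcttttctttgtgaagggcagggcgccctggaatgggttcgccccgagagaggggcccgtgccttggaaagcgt
nt 2802 to 2876: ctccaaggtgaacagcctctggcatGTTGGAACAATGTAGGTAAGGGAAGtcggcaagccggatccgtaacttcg
nt 2327 to 2401: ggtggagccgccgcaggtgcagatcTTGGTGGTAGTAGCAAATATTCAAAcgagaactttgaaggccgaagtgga

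The first of these sequences changes character along its length. Its 5' part, nt 2102 to 2201, has 55% G and, on the rRNA strand, holds 7 GGC units in a row from nt 2152 to 2172, and its 3' part is C-rich, with 17 pyrimidines in a row at nt 2210 to 2226. Within it, the longest run of adjacent 25-nt windows with at least 80% G+C spans nt 2152 to 2276, 125 nt with 86.4% G+C and 54.4% C, and is called the G+C-rich run below. The whole stretch has 68.0% G+C, close to the 69.7% of the rest of 28S. Neither sequence feature is particular to the stretch, since the rest of 28S also holds 7 GGC units in a row, and its longest pyrimidine run has 23 bases. RNAfold from ViennaRNA 2.7.2 predicted a fold of -68.8 kcal/mol for the G+C-rich run alone, against a median of -52.8 kcal/mol for 198 tiles of the same length along 28S, of which 27.3% were predicted to be more stable. In that prediction 19 of the 25 bases of its first window, with the GGC units, pair with bases at least 50 nt into the run. This is a computed fold of naked RNA and not a structure measured in these samples.

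All values below are read depth, the number of reads that cover a position. Relative depth is depth divided by that library's own mean over every position of the table. Windows of 100 nt and of 25 nt were each fitted over the whole table with limma on log2(relative depth + 0.01), nucleus minus cytosol, two-sided, and called at a Benjamini-Hochberg adjusted p under 0.05. A read covers many neighbouring positions, so adjacent windows share reads and are not independent.

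As a whole, the stretch was well covered in each library. Its mean relative depth was 2.57 and 2.42 in the cytosolic libraries against 2.21 and 2.15 in the nuclear ones. It held 12.7% and 11.9% of all depth in the cytosol against 10.9% and 10.6% in the nucleus, so the nuclear libraries lay below both cytosolic ones. The means were 12.3% ± 0.540 and 10.7% ± 0.201 (SD, n = 2), with a two-sided exact permutation p of 0.333, the smallest that 2 libraries against 2 can give. This separation did not hold with the median depth over the stretch in place of its mean. The shares were then 12.2% and 11.7% in the cytosol against 12.5% and 11.1% in the nucleus, which overlap. In the rest of 28S the mean relative depth was 2.28 and 2.23 against 1.98 and 1.97. The log2 ratio of mean depth in the stretch over that in the rest of 28S was 0.17 and 0.12 in the cytosol against 0.16 and 0.12 in the nucleus. These values overlap, and their means differed by -0.0046 (exact permutation p = 1). With medians over positions the ratio was 0.41 and 0.28 in the cytosol against 0.64 and 0.58 in the nucleus, without overlap.

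Inside the stretch the fractions differed in some places and not in others. Of its 31 windows of 25 nt, 14 were lower in the nucleus and 0 were higher, in the limma fit (0 higher also at an unadjusted p under 0.05). Among all features tested, 19.0% of 526 windows were called lower and 36.7% higher. Most calls outside 28S were higher, and the share of lower calls in the stretch, 45.2%, was near the 42.7% of the 171 windows in the rest of 28S (73 lower and 12 higher). The median log2 difference was -0.10 in the stretch, -0.22 in the rest of 28S and 0.01 over all windows. With 100-nt windows 3 of 8 (37.5%) were lower and 0 higher (0 higher also at an unadjusted p under 0.05). The shares were 17.6% lower and 39.0% higher of 136 windows in the table. In the rest of 28S they were 41.5% lower and 12.2% higher of 41 windows. The 14 calls formed 2 unbroken blocks, 4 windows from nt 2102 to 2201 and 10 windows from nt 2452 to 2701. In every one of the 14 windows both nuclear values lay below both cytosolic values, which a call on the same 4 libraries makes likely. Of all 31 windows of the stretch, 15 were separated in this way and 6 in the opposite way.

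**Figure D1:**
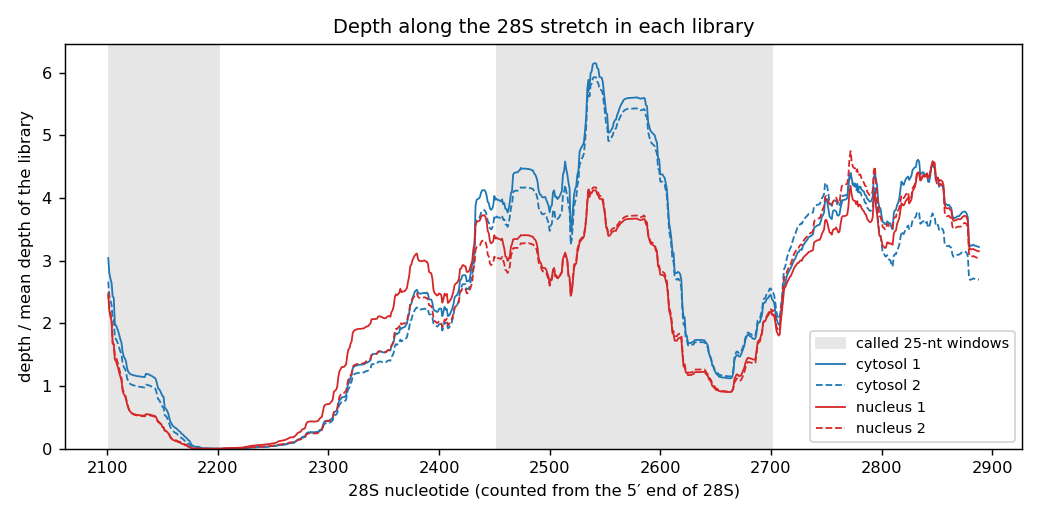
Relative depth (depth over the library mean) at each nucleotide of the stretch, one line per library, blue for cytosol and red for nucleus. The grey bands mark the 2 blocks of 25-nt windows called lower in the nucleus, nt 2102 to 2201 and nt 2452 to 2701, where both red lines run below both blue ones.

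The first block is the 5' side of the ES15L region. It is G-rich as a whole, but its last window, nt 2177 to 2201, ends in C-rich sequence. Depth fell steeply along the block in every library. At nt 2101 it was 631565 and 526858 reads in the cytosol against 518252 and 471388 in the nucleus. It reached its lowest point of the stretch at nt 2200 in both cytosolic libraries, with 240 and 218 reads, and at nt 2198 and 2199 in the nuclear ones, with 30 and 26 reads. Exact Poisson 95% intervals, which cover counting error only, were 211 to 272 and 190 to 249 reads in the cytosol and 20.2 to 42.8 and 17.0 to 38.1 in the nucleus. From nt 2101 to the minimum, depth thus dropped 2632-fold and 2417-fold in the cytosolic libraries against 17275-fold and 18130-fold in the nuclear ones. Positions with under 0.1 of the library mean formed a single run in each library, of 94 and 97 nt in the cytosol and of 87 and 98 nt in the nucleus.

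The nuclear deficit grew along this block. At nt 2102 to 2126, with 96% G+C, relative depth was 1.70 and 1.49 in the cytosol against 1.09 and 1.12 in the nucleus. The log2 difference there was -0.52 (SE 0.09, adjusted p = 0.0126). At nt 2127 to 2151 relative depth was 1.09 and 0.922 against 0.499 and 0.489, a 2.04-fold lower nuclear mean, with a log2 difference of -1.01 (95% interval -1.35 to -0.66, adjusted p = 0.00490). The next window, nt 2152 to 2176, holds all 7 GGC units and consists of G and C only, as does 1 other 25-nt window of 28S. Its relative depth was 0.325 and 0.246 in the cytosol against 0.126 and 0.135 in the nucleus. This was the largest difference of the stretch on the tested scale, at -1.06 (95% interval -1.73 to -0.39, adjusted p = 0.0239). Its call ended when either cytosolic library was left out, at -0.87 without replicate 1 (adjusted p = 0.142) and -1.26 without replicate 2 (adjusted p = 0.0658).

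By ratio of depths the deficit was largest just after the GGC units. At nt 2177 to 2201, the capitals of the first sequence, relative depth was 0.0147 and 0.00829 in the cytosol against 0.00143 and 0.00161 in the nucleus. The nuclear mean was 7.56-fold lower. The log2 difference of -0.88 (SE 0.16, adjusted p = 0.0138) is smaller than that ratio. The added 0.01 is close to the cytosolic depth and well above the nuclear depth. With 0.0001 added, the log2 difference of this window was -2.78. In 28S, 9 of 202 windows had a lower ratio of nuclear over cytosolic depth and 11 had a lower nuclear depth than this one. The cytosolic libraries also stood furthest apart here, with replicate 1 at 1.78 times replicate 2.

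The drop was uneven from base to base. Among the 758 positions of the stretch with at least 1000 reads in every library, depth changed from the base before by at least 0.2 on the log2 scale in the same direction in all libraries at 6 falls and 4 rises. In 28S as a whole, with the stretch included, 4578 positions had this depth, with 45 such falls and 41 such rises. A fall of that size in some libraries only was found at 10 further positions of the stretch. Of these, 4 were in both nuclear libraries alone and 1 in both cytosolic libraries alone. Of the 6 falls shared by all, 5 lay between nt 2157 and 2177, from within the GGC units to the last base of the G run that follows them. The largest was at nt 2176, where log2 depth fell by 0.60 and 0.73 in the cytosol and by 1.13 and 1.12 in the nucleus. At nt 2175 it fell by 0.30 and 0.33 in the cytosol and by 0.59 and 0.69 in the nucleus. The nuclear steps exceeded both cytosolic steps at each of these 5 positions. At the remaining fall, nt 2620 in the domain III part, they did not, with -0.24 and -0.23 in the cytosol against -0.21 and -0.20 in the nucleus. The minimum of 1000 reads leaves out the end of the drop, where each library had its steepest step. At nt 2185, the steepest of cytosolic replicate 1, log2 depth fell by 1.22 and 0.83 in the cytosol and by 0.82 and 0.81 in the nucleus, so the nuclear falls were not the larger ones there. At nt 2196, the steepest of the other libraries, it fell by 1.12 and 0.92 in the cytosol and by 1.17 and 1.15 in the nucleus, from 111 to 957 reads before the step.

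**Figure D2:**
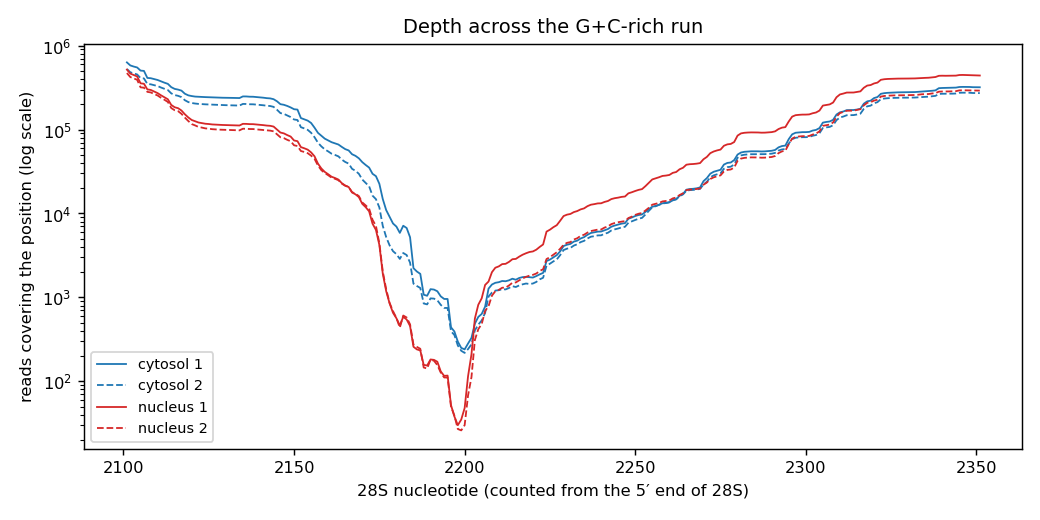
Reads covering each nucleotide from nt 2101 to 2351 on a log scale, one line per library. All 4 libraries drop to a minimum at nt 2198 to 2200, of 240 and 218 reads in the cytosol against 30 and 26 in the nucleus, and the red lines cross the blue ones just after it.

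On the C-rich, 3' side of the minimum the order of the fractions turned over. The nuclear libraries were both lower than both cytosolic ones at every position from nt 2101 to 2202, and both higher from nt 2215 to 2269. At nt 2228 depth was 3536 and 3189 reads in the cytosol against 8193 and 3799 in the nucleus. No window on this side passed the limma test, and the nuclear replicates did not move alike. At nt 2227 to 2251 relative depth was 0.0298 and 0.0282 in the cytosol, 0.0624 in nuclear replicate 1 and 0.0345 in nuclear replicate 2. The log2 difference of 0.54 had a 95% interval of -0.27 to 1.36 (adjusted p = 0.188). Nuclear replicate 1 stood 1.81 times above replicate 2 in this window, the widest gap of the nuclear pair, and 4 of the 31 windows had a nuclear gap of over 1.5 times.

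In the windows that follow, depth climbed out of the minimum, and the difference between the means stayed positive to nt 2426, where it was 0.05. At nt 2302 to 2326 relative depth was 0.891 and 0.811 in the cytosol against 1.35 and 0.924 in the nucleus. At nt 2352 to 2376, which has 32% G+C, the lowest of the stretch, it was 1.87 and 1.68 against 2.46 and 1.91, with a log2 difference of 0.29 (95% interval -0.14 to 0.71, adjusted p = 0.182). At nt 2377 to 2401 nuclear replicate 2, at 2.29, lay between the cytosolic values of 2.39 and 2.14. Without nuclear replicate 2, 8 windows of 25 nt were called higher in limma, from nt 2202 to 2401, and without nuclear replicate 1 there were 0 (1 at an unadjusted p under 0.05). With all 4 libraries, the 3 windows from nt 2302 to 2376 were called higher with a pseudocount of 0.0001 or 0.00001 and with a minimum depth of 100, and the last of these settings also called the 2 windows from nt 2202 to 2251. The calls on this side thus depended on which nuclear library was left out and on these settings. A fit with 1 nuclear library holds no nuclear spread, so its calls do not take that spread into account.

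Across the minimum, the balance of its flanks differed between the fractions. The log2 ratio of mean depth at nt 2102 to 2201 over that at nt 2202 to 2351 was 0.76 and 0.66 in the cytosol against -0.67 and -0.10 in the nucleus. The 5' flank was thus the deeper one in the cytosol and the shallower one in the nucleus, by 0.71 ± 0.07 and -0.39 ± 0.40 (SD, n = 2). These flanks were set after the values were seen, so the difference of -1.10 is a description. By mean depth, the G+C-rich run as a unit, which spans the turn, did not separate the fractions. Its log2 depth over the rest of the stretch was -5.01 and -5.22 in the cytosol against -5.10 and -5.52 in the nucleus (exact permutation p = 0.667). With medians over positions it was -6.59 and -6.80 against -5.78 and -6.42, with both nuclear values above both cytosolic ones.

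The second block of lower nuclear depth, nt 2452 to 2701, lies in the part that the label gives to domain III. It held the highest cytosolic depth of the stretch and its values were tight between replicates. At nt 2527 to 2551, the highest cytosolic window, relative depth was 5.63 and 5.44 in the cytosol against 3.82 and 3.86 in the nucleus. The log2 difference was -0.52 (95% interval -0.65 to -0.40, adjusted p = 0.00165). The difference deepened along the block to nt 2602 to 2626, the capitals of the second sequence, where relative depth was 2.998 and 2.897 against 1.89 and 1.94. The nuclear mean there was 1.54-fold lower and the log2 difference stood at -0.62 (SE 0.05, adjusted p = 0.00150). It then shrank again to -0.27 at nt 2677 to 2701 (adjusted p = 0.0163). That last call ended whichever of the 4 libraries was left out, and with scaling to 28S.

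Of the 100-nt windows in this block, nt 2477 to 2576 had a relative depth of 4.84 and 4.61 in the cytosol against 3.34 and 3.34 in the nucleus. Its log2 difference was -0.50 (95% interval -0.62 to -0.38, adjusted p = 0.00183). At nt 2577 to 2676 relative depth was 2.77 and 2.71 against 1.86 and 1.88, a log2 difference of -0.55 (95% interval -0.67 to -0.42, adjusted p = 0.00137). The third called window was nt 2077 to 2176, which overlaps the start of the stretch, with 1.78 and 1.56 against 1.27 and 1.29 (-0.38, SE 0.09, adjusted p = 0.0251). The calls of the domain III pair held in each alternative that kept these windows, with differences of -0.46 to -0.56 when a library was left out. The size of the differences depended on the scaling. They were -0.31 and -0.36 with scaling to 28S, and -0.74 and -0.79 with scaling by median of ratios. The call at nt 2077 to 2176 ended when cytosolic replicate 1 was left out (-0.28, adjusted p = 0.0564), with scaling to 28S (-0.19, adjusted p = 0.103) and with no variance trend (adjusted p = 0.0568).

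The remaining 100-nt windows did not pass with the settings above. At nt 2177 to 2276, which holds the minimum, relative depth was 0.0364 and 0.0340 in the cytosol against 0.0633 and 0.0354 in the nucleus (log2 difference 0.35, SE 0.30, adjusted p = 0.373). That difference was 0.0074 without nuclear replicate 1 and 0.70 without nuclear replicate 2. At nt 2277 to 2376 it was 1.13 and 1.02 against 1.58 and 1.15, with the nuclear values above both cytosolic ones (0.32, 95% interval -0.19 to 0.84, adjusted p = 0.206). This window was called higher with a pseudocount of 0.0001 or 0.00001 (adjusted p = 0.0243 and 0.0310) and with a minimum depth of 100 (adjusted p = 0.0428). Its difference was 0.55 without nuclear replicate 2 and 0.093 without nuclear replicate 1. The difference was -0.10 at nt 2377 to 2476 and -0.10 at nt 2677 to 2776, with 95% intervals of -0.35 to 0.15 and -0.29 to 0.08. At nt 2777 to 2876 it was 0.06 (95% interval -0.19 to 0.31), with relative depths of 4.06 and 3.49 in the cytosol against 3.87 and 3.99 in the nucleus.

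**Figure D3:**
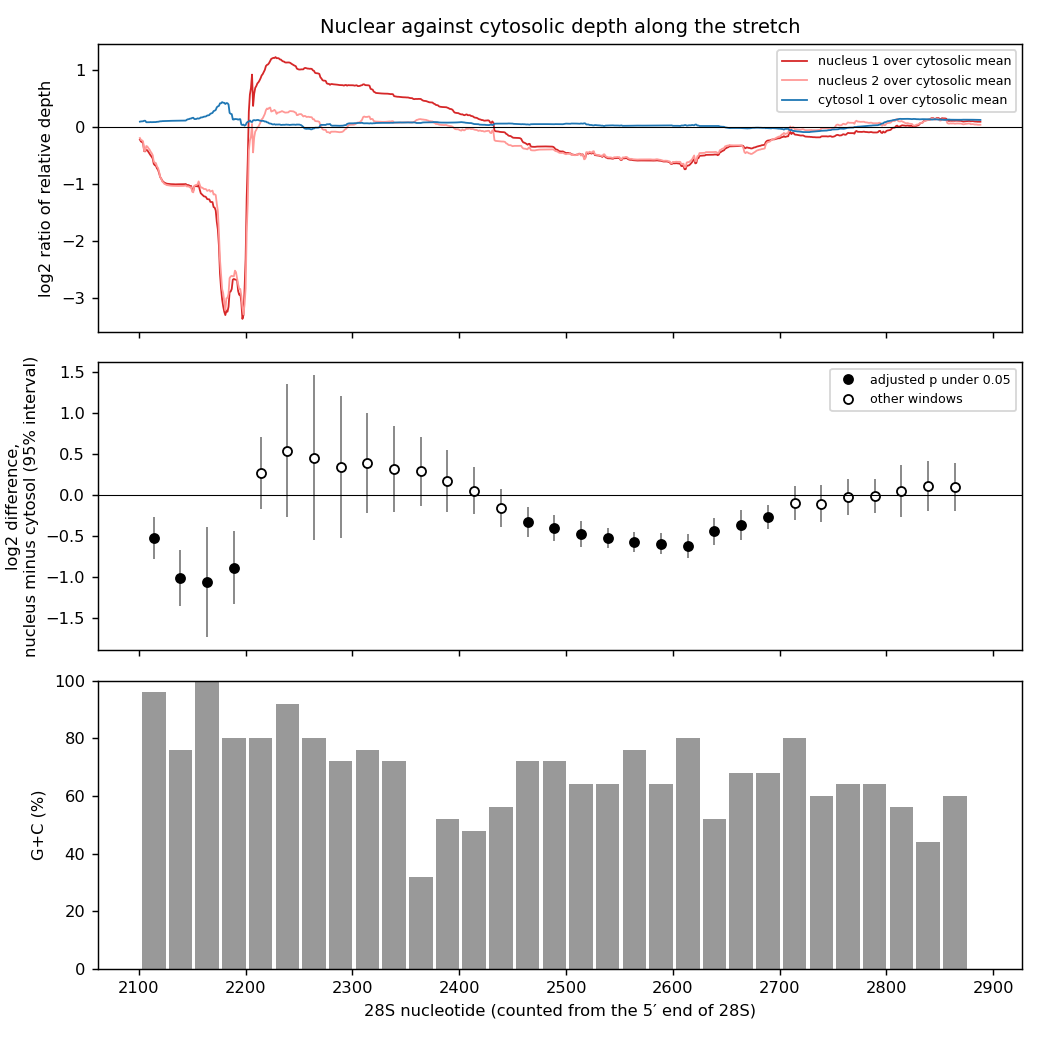
Top, log2 of the relative depth of each nuclear library (red) and of cytosolic replicate 1 (blue) over the cytosolic mean at each nucleotide. Middle, the limma difference of each 25-nt window with its 95% interval, filled where adjusted p was under 0.05, and below it the G+C content of the same windows in percent. The 14 filled points form 2 blocks, and the nuclear libraries part from each other between them.

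Both fractions had the same landmarks in this part. A narrow dip at nt 2519 had relative depths of 3.46 and 3.26 in the cytosol against 2.44 and 2.48 in the nucleus. A broader one had its lowest point at nt 2663 in all 4 libraries, at 1.12 and 1.15 against 0.905 and 0.911. Position by position, both nuclear libraries lay below both cytosolic ones at every base from nt 2433 to 2708, a run of 276 nt. Over the stretch, 378 of 788 positions (48.0%) were of this kind and 129 (16.4%) of the opposite kind, against 62.9% and 17.7% of the rest of 28S and 32.2% and 44.0% of all listed positions.

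The last part of the stretch, toward domain IV, did not separate the fractions. At nt 2827 to 2851, the highest nuclear window and the capitals of the third sequence, relative depth was 4.42 and 3.64 in the cytosol against 4.34 and 4.33 in the nucleus (log2 difference 0.11, 95% interval -0.20 to 0.42). The nuclear values fell between the cytosolic ones. The single highest position lay at nt 2541 in both cytosolic libraries, with relative depths of 6.15 and 5.93, but at nt 2846 and nt 2772 in the nuclear ones, with 4.59 and 4.75. The log2 ratio of mean depth at nt 2527 to 2601 over that at nt 2777 to 2851 was 0.39 and 0.55 in the cytosol against -0.11 and -0.17 in the nucleus. Of these 2 peaks of depth, the first was thus the higher in each cytosolic library and the second in each nuclear one. Both places were chosen by their depth in these libraries, so this is a description.

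Depth went down with G+C content in both fractions. Across the 31 windows of the stretch, Pearson's r of G+C with log2 depth was -0.48 in the cytosol against -0.52 in the nucleus, and across the 171 windows of the rest of 28S it was -0.60 and -0.60. With the log2 ratio of nucleus over cytosol it was -0.24 in the stretch and -0.29 in the rest of 28S. Windows of a library share its depth and neighbours share reads, so these are descriptions. Depth was higher at 100% G+C (nt 2152 to 2176) than at 80% (nt 2177 to 2201). The windows either side of the minimum, nt 2177 to 2201 and nt 2202 to 2226, both had 80%. A read spans neighbouring windows, so the depth of a window does not measure an effect of its own G+C content. With a cubic in G+C removed, 13 of the 14 calls were kept and the window at nt 2102 to 2126 was lost. That fit tested fewer windows and called more of them lower, 140 of 421, against 100 of 526 without the removal. The set of windows and the background of lower calls thus both changed. The calls kept therefore do not show that these differences are free of G+C content. The part of library preparation or amplification in these differences was not tested.

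**Figure D4:**
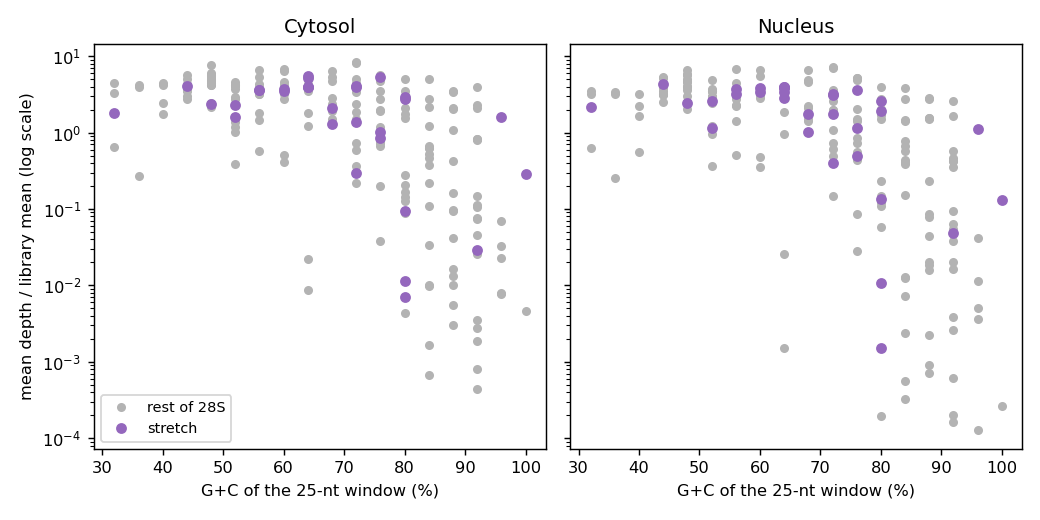
Mean relative depth of each 25-nt window of 28S on a log scale against its G+C content in percent, for the cytosol (left) and the nucleus (right), with the 31 windows of the stretch in purple and the 171 others in grey. Depth is lower at high G+C in both, and the stretch lies among the other windows of 28S.

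By mean depth, the whole stretch was deeper than each of 2 G+C-rich segments of 28S, and its own G+C-rich run was shallower than both. The mean relative depth of the run was 0.0853 ± 0.0125 in the cytosol against 0.0655 ± 0.0145 in the nucleus (SD, n = 2). The next 712 nt, nt 2889 to 3600, about ES27L, have 87.2% G+C and had a mean relative depth of 0.183 ± 0.0156 in the cytosol against 0.155 ± 0.00388 in the nucleus (SD, n = 2). Windows of 25 nt in this segment varied widely, with 1.77 in the cytosol and 1.70 in the nucleus at nt 2902 to 2926. At nt 3427 to 3451 the values were 0.000669 and 0.000331, below every 25-nt window of the run. For mean depth, the log2 ratio of the stretch over this segment was 3.73 and 3.81 in the cytosol against 3.80 and 3.82 in the nucleus. These ratios overlapped between fractions (exact permutation p = 0.667). With medians over positions they were 7.94 and 7.79 in the cytosol against 9.25 and 9.69 in the nucleus, without overlap. By medians, the log2 ratio of the run over the rest of the stretch was -6.59 and -6.80 against -5.78 and -6.42. The order of the run and this segment thus turned over with medians, the segment being the shallower one in every library. At nt 401 to 1300, about ES7L, mean relative depth was 0.699 ± 0.0533 against 0.754 ± 0.0266 (SD, n = 2). The log2 ratio of the stretch over this segment was 1.96 and 1.71 in the cytosol against 1.51 and 1.55 in the nucleus. The nuclear values were the lower ones with no overlap, and the difference of -0.30 had an exact permutation p of 0.333, the smallest possible. It was -0.18 without cytosolic replicate 1 and -0.43 without cytosolic replicate 2. The bounds of both comparison segments are approximate.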

How the data were processed

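The deposited values are signal in the form of coverage: per the file headers, the number of reads over each position of 5S, the 45S precursor and 2 mitochondrial rRNA intervals, not scaled between libraries. The tools named in the submitters' processing notes are cutadapt 1.5, SAMtools and Bowtie2 2.2.6. Their settings, the read filters and the use of strand were not given in the sources used here. Ends of 28S were taken from a RefSeq gene table by the offset of RNA28SN5 within RNA45SN5.

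Windows counted from position 1 of each sequence and were tested where mean depth was at least 10 in at least 2 libraries, with limma 3.58.1 in R 4.3.3 (lmFit, eBayes with a mean-variance trend). A window belonged to the stretch when at least 50% of it did. The pseudocount of 0.01 equals 1890 to 2117 reads, so log2 differences near the depth minimum understate ratios, which are given beside them. A fit with a library left out has only 1 library in that fraction, so its p-values reflect the spread of the other fraction alone. Single values per library were compared by exact permutation. Reads from different rDNA copies cannot be told apart. The Poisson intervals at the minimum treat reads as independent. PCR duplicates are not known, so these intervals may be too narrow even for counting error. The intervals of the windows come from the limma fit.

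Named were every 100-nt window, the 3 largest falls and rises among called 25-nt windows whose fractions did not overlap (there were 0 rises), the windows of highest and lowest depth in each fraction and the G+C-rich run. Other 25-nt windows, the flanks, the peaks and the comparison with the segment about ES7L, with their alternatives, were picked after seeing the data. The stretch, the windows and the tests were chosen with earlier results of these data known.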

Additional observations from a re-analysis of the deposited data

How the results depend on the processing

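The 14 falls of 25-nt windows numbered 11 to 15 under the 11 other settings that kept all libraries and 10 to 13 when a library was left out; 9 of the 14 were kept in all 14 alternatives that kept the windows in place. The falls of 100-nt windows, 3, numbered 2 to 4. Scaling by median of ratios moved log2 differences of 100-nt and 25-nt windows by -0.24 and -0.22, and scaling to 28S by 0.19, before the pseudocount. Calls of a rise, 0 in both fits, were less stable. With a pseudocount of 0.0001 or 0.00001 there was 1 at 100 nt and 3 at 25 nt, with a minimum depth of 100 there was 1 and 5, and leaving out a library gave 0 to 2 and 0 to 8. The cause was not tested.

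The replicate numbers are shared by the fractions, but nothing says that they pair the libraries, and deviations of same-numbered libraries from their fraction means correlated at 0.23 over 100-nt windows and 0.11 over 25-nt windows. With the replicate block there were 3 falls and 1 rise at 100 nt and 13 falls and 1 rise at 25 nt. The block ended the call at nt 2152 to 2176 (adjusted p = 0.0816) and added calls of a rise at nt 2277 to 2376 (adjusted p = 0.0473) and at the 25-nt window nt 2352 to 2376.

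Ratios near 0 changed sign. The difference of the stretch over the rest of 28S, -0.0046, was 0.26 with medians over positions and -0.032 to 0.023 with a library left out. That of the G+C-rich run over the rest of the stretch, -0.20, was 0.59 with medians, 0.10 with the run set at 70% G+C and -0.41 to 0.013 with a library left out. That of the stretch over the next segment, 0.04, was 1.61 with medians and -0.0019 to 0.083 with a library left out. Of windows that did not pass, nt 2377 to 2476 turned to 0.042 with window medians and 0.091 with scaling to 28S, nt 2677 to 2776 to 0.086 with scaling to 28S, and nt 2777 to 2876 to -0.18 with median of ratios, -0.058 with the cubic in G+C removed and -0.048 to 0.17 with a library left out. The 25-nt window at nt 2827 to 2851 turned to -0.11 with median of ratios and ranged from -0.028 to 0.25 with a library left out. At the minimum, 26 to 240 reads limit the precision.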
